A study of Homo sapiens with 6 samples.

Results

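The genes described here encode the proteins of the mitochondrial ribosome in BEAS-2B cells, an immortalised human bronchial epithelial line. They were taken as every gene whose symbol is MRPL or MRPS followed by a number and at most a letter A, B or C, which gave 78 of the 61806 genes in the table, 49 named for the large subunit (MRPL) and 29 for the small subunit (MRPS). Polyadenylated RNA was sequenced from 3 libraries of cells treated with 15-KETE and from 3 control libraries, numbered 1 to 3 in each group. 15-KETE, or 15-oxo-ETE, is formed from arachidonic acid by oxidation and carries an electrophilic ketone. The labels give no dose, exposure time or vehicle, and they do not say that replicates came from separate cultures, so the spread between libraries may be technical. The study asked how 15-KETE affects the transcriptome of airway epithelial cells, and the comparison here is 15-KETE against control for each of these genes, by subunit, by group and within the same-numbered pairs.

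The mitochondrial ribosome translates the mRNAs of the mitochondrial genome, all of which encode subunits of the respiratory chain and of ATP synthase. Its rRNAs are transcribed from mitochondrial DNA, whereas its proteins are encoded in the nucleus, made in the cytosol and imported, so the ribosome joins the products of 2 genomes. Part of its proteins have a counterpart in bacterial ribosomes and part are found only in mitochondria. The small subunit binds the mRNA and holds the decoding site, and the large subunit forms the peptide bond. The symbols do not follow the subunits in every case. MRPS30 and MRPS18A encode proteins that sit in the large subunit (mL65 and mL66 in the structure-based names), and MRPS36 encodes a component of the oxoglutarate dehydrogenase complex. DAP3, PTCD3, AURKAIP1, CHCHD1 and GADD45GIP1 encode ribosomal subunits under other names and are given as a list of their own.

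The libraries held 17861421, 22876808 and 17562525 counts in 15-KETE replicates 1, 2 and 3, against 18215997, 21780953 and 16844781 in control replicates 1, 2 and 3. The epithelial markers KRT8, KRT18, KRT19, KRT5 and EPCAM summed to 113 to 210 FPKM (counts scaled to exonic gene size and library total) in 15-KETE libraries and 118 to 293 FPKM in control libraries. The leukocyte markers PTPRC, CD68 and CD3E summed to at most 0.28 FPKM in any library, the endothelial markers PECAM1, CDH5 and VWF to at most 0.17 FPKM, and the fibroblast markers COL1A1, COL3A1 and PDGFRB to 3.58 to 4.5 FPKM in 15-KETE libraries and 2.78 to 4.79 FPKM in control libraries, with COL3A1 at 0 in all. Control replicate 2 stood apart from the other 5 libraries in most of the values below. The main medians and the fold changes of some members are therefore also given without it. Standard errors, intervals and correlations between members are given only with it included. In bulk samples fewer cells that express a gene and less RNA per cell cannot be told apart.

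Of the 78 genes, 69 had a promoter in RefSeq's table on GRCh38.p14, with 85 windows of 250 bases before an annotated start. These windows were searched on both strands for the letters CCGGAAG, a core bound by ETS factors such as GABPA, GCGC and TGCGC with 1 base between, bound by NRF1, and AAGATGGC, bound by YY1, all of which are known regulators of nuclear genes for mitochondrial proteins. CCGGAAG stood in 27 windows of 25 members (31.8%, against 8.52% of 35116 windows of all genes and 14% of the 15656 windows of the genes tested below). The NRF1 letters stood in 10 windows of 9 members (11.8%, against 5.07% and 8.9%), and AAGATGGC in 7 windows of 5 members (8.24%, against 1.36% and 1.82%). At least 1 of these stood in 39 windows (45.9%, against 13.9% and 22.7%). Counted by gene, with any of its windows, these were 35 of the 69 members, 23 of 42 of the large subunit and 12 of 27 of the small one. The GC box GGGCGG stood in 55.3% of the members' windows, against 42.6% of all windows and 63.1% of those of tested genes, and TATAAA stood in 2.35%, against 10.7% and 5.98%. A match is a description of the letters and no measure of binding. The 4 promoters below are shown because they hold an ETS match close to the start, an NRF1 match, 2 ETS matches and none of the 3, in members that also differ in their values. Whether a match goes with a member's values was not tested. Capitals mark the matched letters, and only stretches outside annotated exons are printed.
MRPL20 (chr1:1407314-1407543, minus strand, CCGGAAG from 44 bases before the start): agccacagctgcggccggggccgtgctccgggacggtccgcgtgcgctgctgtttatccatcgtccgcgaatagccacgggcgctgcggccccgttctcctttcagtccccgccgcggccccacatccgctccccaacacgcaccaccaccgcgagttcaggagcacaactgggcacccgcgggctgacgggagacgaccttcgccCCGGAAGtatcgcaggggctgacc
MRPL36 (chr5:1799896-1800087, minus strand, the NRF1 letters from 110 bases before the start, with AAGATGGC elsewhere in the window and not in the printed stretch): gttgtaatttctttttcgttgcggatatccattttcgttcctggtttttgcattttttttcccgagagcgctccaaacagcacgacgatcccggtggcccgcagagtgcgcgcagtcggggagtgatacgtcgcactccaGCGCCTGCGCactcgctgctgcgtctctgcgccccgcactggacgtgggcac
MRPL58 (chr17:75012420-75012669, plus strand, CCGGAAG on the reverse strand from 193 and on the forward strand from 8 bases before the start): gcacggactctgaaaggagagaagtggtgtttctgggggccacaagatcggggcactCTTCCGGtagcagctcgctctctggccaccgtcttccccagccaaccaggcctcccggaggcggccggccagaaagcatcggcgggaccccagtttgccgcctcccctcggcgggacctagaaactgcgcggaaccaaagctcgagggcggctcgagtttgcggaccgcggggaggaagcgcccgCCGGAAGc
MRPL19 (chr2:75646533-75646782, plus strand, none of the 3): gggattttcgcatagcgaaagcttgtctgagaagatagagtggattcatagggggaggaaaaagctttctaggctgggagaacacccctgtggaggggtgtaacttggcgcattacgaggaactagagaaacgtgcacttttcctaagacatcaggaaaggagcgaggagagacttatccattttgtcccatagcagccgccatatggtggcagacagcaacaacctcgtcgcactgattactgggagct

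The 49 large-subunit genes together had a higher summed level per exonic length than the 29 small-subunit genes in every library, at a ratio that differed little between libraries. The sums grow with the number of genes, so their ratio is not a difference per gene. Per tested gene, the median of the mean level was 21.7 FPKM in the large and 15.1 FPKM in the small subunit. The summed level of the MRPL genes was 1067, 1363 and 1060 FPKM in 15-KETE replicates 1, 2 and 3, against 1217, 2187 and 1051 FPKM in control replicates 1, 2 and 3. The MRPS genes summed to 516, 617 and 491 FPKM in 15-KETE libraries, against 565, 927 and 493 FPKM in control libraries. Control replicate 2 was the highest library for both sums, 15-KETE replicate 2 came next, and the groups overlapped. All members together took 0.379%, 0.457% and 0.374% of the counts in 15-KETE libraries, against 0.416%, 0.667% and 0.375% in control libraries.

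The ratio of the large to the small sum was 2.07, 2.21 and 2.16 in 15-KETE libraries, against 2.15, 2.36 and 2.13 in control libraries. The 15-KETE mean was 2.14 ± 0.071 and the control mean 2.22 ± 0.126 (SD, n = 3 for either), so the groups differed by less than the spread within the control group. Within the pairs the log2 ratio differed by -0.06, -0.10 and 0.02 (15-KETE minus control), so the sums of both subunits moved closely together in each pair. The large sum itself differed by -0.19, -0.68 and 0.01 log2 units within pairs 1, 2 and 3, and the small sum by -0.13, -0.59 and -0.0046. With MRPS30 and MRPS18A counted in the large subunit and MRPS36 in neither, the ratio was 2.29, 2.45 and 2.42 in 15-KETE libraries and 2.40, 2.57 and 2.38 in control libraries. On raw counts, without division by length, the ratio was lower, with a mean of 1.66 ± 0.0128 for 15-KETE and 1.72 ± 0.0883 for control (SD, n = 3 for either).

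**Figure D1:**
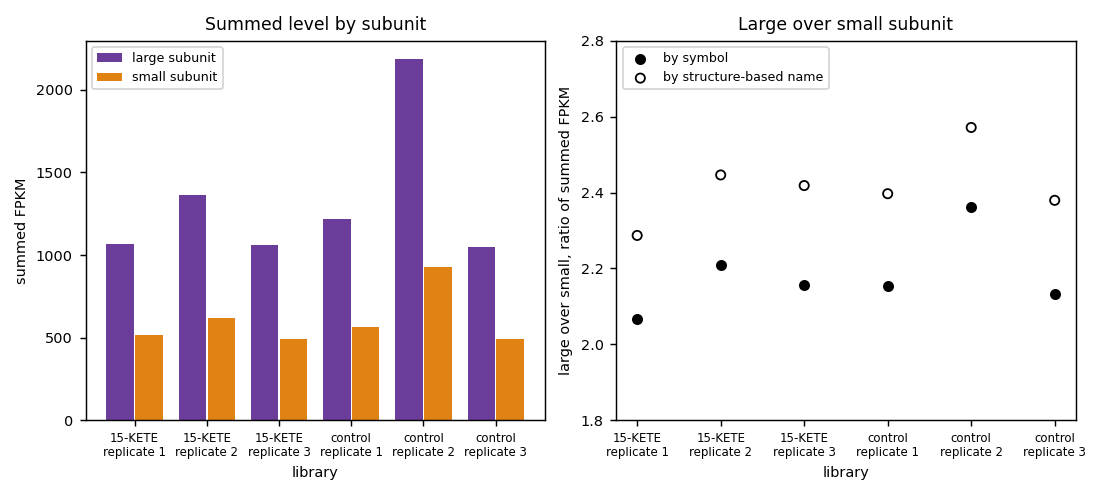
Summed FPKM of the MRPL and MRPS genes (bars, left) and the ratio of the sums (points, right) in each library, 15-KETE before control, with filled points for subunits by symbol and open points for the structure-based assignment. Control replicate 2 has the highest sums (2187 and 927 FPKM) and the highest ratio (2.36), and the ratios of the other 5 libraries lie between 2.07 and 2.21 by symbol.

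The level per exonic length varied widely within each subunit, although the proteins stand in the ribosome at a single copy each with few exceptions. Mean FPKM over the 6 libraries ran from 1.48 to 92.2 among the 48 large-subunit genes tested, a 62.1-fold range with a median of 21.7, and from 1.93 to 56.6 among the 29 small-subunit genes, a 29.4-fold range with a median of 15.1. The 5 highest members held 27.2% of the summed mean level of the 48 large-subunit genes and 39.8% of that of the 29 small-subunit genes. These shares depend on the number of genes and do not compare directly. Highest in the large subunit were MRPL51, MRPL12, MRPL18, MRPL41 and MRPL14, and lowest were MRPL46, MRPL38 and MRPL42. Highest in the small subunit were MRPS26, MRPS34, MRPS21, MRPS18B and MRPS15, and lowest were MRPS5, MRPS25 and MRPS24. Exonic gene size ran from 582 bases (MRPL41) to 16368 (MRPL42) in the large and from 1016 (MRPS26) to 19524 (MRPS27) in the small subunit, and FPKM divide by this size. MRPS27 had the most counts of any member (23735 over the 6 libraries, against 6796 for MRPS26), and its mean of 10.4 FPKM lay below the median of the small subunit.

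MRPL51 (chr12:6491886-6493841, minus strand), a mitochondria-specific protein of the large subunit, had the highest level of all members. It stood at 66.1, 86.8 and 78.3 FPKM in 15-KETE replicates 1, 2 and 3, against 73.3, 170 and 78.2 FPKM in control replicates 1, 2 and 3. Control replicate 2 was far above the other 5 libraries, and the groups overlapped. MRPS26 (chr20:3046052-3048250, plus strand), a mitochondria-specific protein and the highest of the small subunit, stood at 53.3, 56.3 and 38.8 FPKM in 15-KETE libraries, against 61.3, 93 and 37 FPKM in control libraries. Again control replicate 2 was highest, and control replicate 3 was lowest. At the other end MRPL46, a protein of the central protuberance of the large subunit, stood at 1.71, 1.31 and 1.16 FPKM in 15-KETE libraries, against 1.58, 2.09 and 1.05 FPKM in control libraries. MRPL38, a mitochondria-specific protein of the same region, stood at 5.26, 5.14 and 4.29 FPKM in 15-KETE libraries, against 6.16, 6.1 and 4.44 FPKM in control libraries, and its groups overlapped too.

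**Figure D2:**
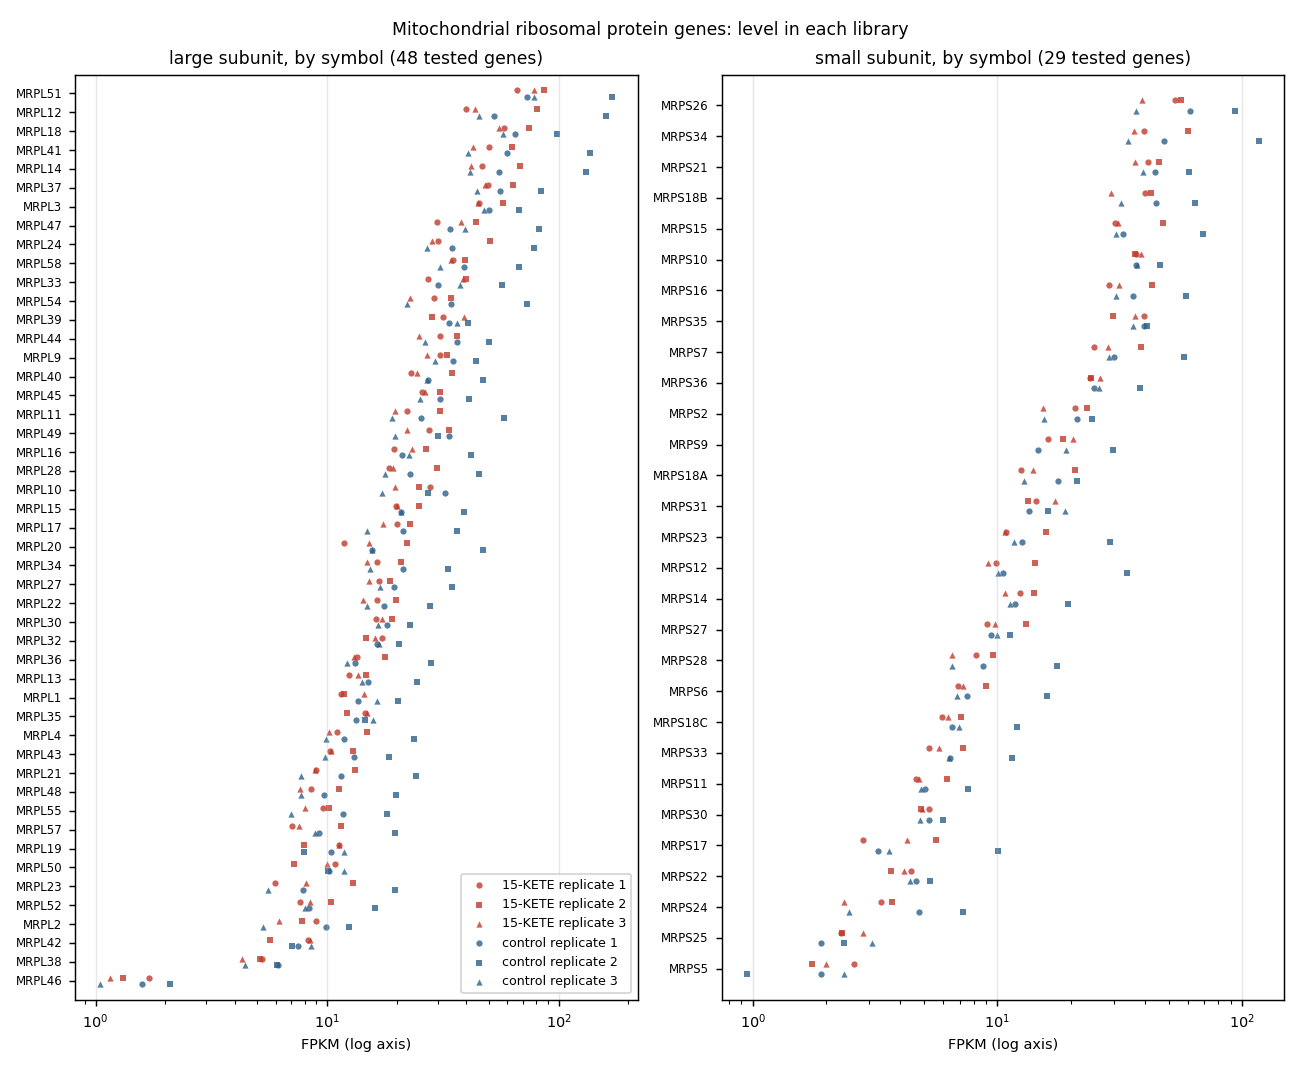
Level of each of the 77 tested members in each library, in FPKM on a log axis, sorted by mean level within the large (left) and the small subunit (right), with 15-KETE in red, control in blue and the replicate number as the marker shape. Control replicate 2 (blue squares) lies to the right of the other libraries for most members, and at the left for MRPS5.

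Between the groups, 15-KETE libraries held less of nearly every member than control libraries, and no member passed the test. In edgeR's quasi-likelihood test over all 15451 genes that passed a filter on low counts, 0 of the 77 members tested had an adjusted p below 0.05, as had 0% of all genes, and the lowest adjusted p of a member was 0.9996 (Benjamini-Hochberg). At an unadjusted p below 0.05 there were also 0 members, against 0.162% of all genes, and 10 of 78 members when no filter on low counts was applied, against 1.41%. The log2 fold change, 15-KETE over control, was below 0 for 76 of 77 members against 50.2% of all genes, all 48 of the large subunit and 28 of 29 of the small one, with MRPS5 as the exception. With library totals in place of the TMM scaling it was below 0 for 73, as MRPL19, MRPS25 and MRPS27 turned to values of 0.010 to 0.060. The median was -0.42 over all members, -0.43 over the large and -0.37 over the small subunit, beside -0.0018 over all genes. With MRPS30 and MRPS18A counted in the large subunit and MRPS36 in neither, the subunit medians were -0.42 and -0.41. By symbol and with a trend on exonic size removed, as described below, they were -0.31 for the large and -0.33 for the small subunit. Without control replicate 2 the member median was 0.047 and 26 of 77 members were below 0. Without both replicate 2 libraries, in the fit with the replicate block described below, it was -0.092 and 64 of 77 were below 0, beside 50.7% of all genes. The 0 of 77 members whose groups did not overlap compare with 2.3% of all genes.

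The 95% interval of the difference lay within a 2-fold change in either direction for 21 of 77 members, so for the others these libraries do not bound the difference that closely. The standard error of the log2 fold change ran from 0.24 to 0.57, with a median of 0.36. With the replicate number as a block the test compares within pairs, and 16 members were lower and 0 higher at an unadjusted p below 0.05, against 2.3% of all genes lower and 2.41% higher. These were MRPL1, MRPL12, MRPL13, MRPL14, MRPL20, MRPL27, MRPL34, MRPL41, MRPL47, MRPL54 and MRPL57 in the large subunit and MRPS12, MRPS18C, MRPS23, MRPS24 and MRPS33 in the small one. None of them passed adjustment in edgeR's blocked fit, where the lowest adjusted p was 0.695. Without both replicate 1, both replicate 2 or both replicate 3 libraries the blocked fit left 7, 1 and 30 members at an unadjusted p below 0.05, in either direction, against 3.83%, 2.32% and 12.2% of all genes. The interval lay within a 2-fold change for 71 of 77 members in that fit, with a median standard error of 0.19.

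The 3 pairs differed in size. On log2(CPM + 0.5), where CPM are counts scaled to the library size with TMM factors, the member median was -0.18 in pair 1, -0.82 in pair 2 and -0.0032 in pair 3 (15-KETE minus control). The large subunit had -0.20, -0.85 and 0.02 and the small subunit -0.11, -0.76 and -0.02, while the medians of all genes were 0.00070, -0.013 and 0.0019. Of the 77 members 65, 76 and 39 were below 0 in pairs 1, 2 and 3, so pair 3 was split about evenly. All 3 pairs were below 0 for 30 members (39%, against 14.5% of tested genes), and above 0 for 0 members (against 14.6%). Of the 16 members named from the blocked fit, 13 were below 0 in all 3 pairs. That fit picked them on differences within the same pairs, so this count is no separate result. Relative to library totals the TMM scaling shifted pairs 1, 2 and 3 by -0.019, -0.22 and -0.0048 log2 units. Control replicate 2 was the highest library in CPM for 74 of 77 members, against 34.5% of tested genes, and in FPKM, which use library totals, for 66.

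**Figure D3:**
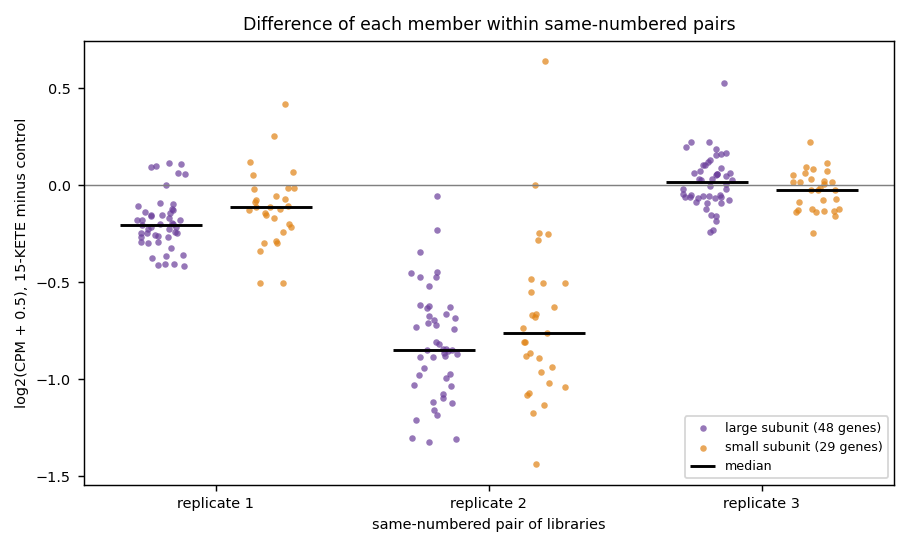
Difference of log2(CPM + 0.5), 15-KETE minus control, for each of the 48 large-subunit (violet) and 29 small-subunit members (orange) within the 3 same-numbered pairs, with the median as a bar. Medians lie at -0.20 and -0.11 in pair 1, -0.85 and -0.76 in pair 2, and 0.02 and -0.02 in pair 3.

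In the large subunit the smallest p-values belonged to MRPL1, MRPL27, MRPL20, MRPL57 and MRPL13. MRPL1 (chr4:77862830-77952785, plus strand), a protein of the stalk beside the tRNA exit site, stood at 11.5, 11.8 and 14.4 FPKM in 15-KETE replicates 1, 2 and 3, against 13.6, 20.3 and 16.4 FPKM in control replicates 1, 2 and 3. Every 15-KETE library lay below its same-numbered control, but 15-KETE replicate 3 was above control replicate 1, so the groups overlapped. Its log2 fold change was -0.52 ± 0.29 (SE), with a 95% interval from -1.17 to 0.14 and an unadjusted p of 0.107 in edgeR's fit. MRPL27 (chr17:50367857-50373207, minus strand), whose bacterial counterpart reaches into the peptidyl transferase centre, stood at 16.8, 18.7 and 15.2 FPKM in 15-KETE libraries, against 19.4, 34.6 and 17 FPKM in control libraries. Here too each 15-KETE library was below its control partner while the groups overlapped, with a log2 fold change of -0.61 ± 0.37.

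MRPL20 (chr1:1401909-1407293, minus strand), the counterpart of a bacterial protein that binds early in assembly of the large subunit, had the lowest log2 fold change of the large subunit. It stood at 11.8, 22.2 and 15.2 FPKM in 15-KETE libraries, against 15.6, 47.3 and 15.6 FPKM in control libraries, and control replicate 2 was more than double any other library. The log2 fold change was -0.83 ± 0.53, and -0.60 ± 0.22 with the replicate block (unadjusted p = 0.0203, adjusted p = 0.695 in edgeR's fits). Without control replicate 2 the unblocked value was 0.10, and without both replicate 2 libraries the blocked value was -0.24. MRPL57, a small mitochondria-specific protein, stood at 7.02, 11.4 and 7.55 FPKM in 15-KETE libraries, against 9.27, 19.7 and 8.88 FPKM in control libraries. It was lower in 15-KETE in each pair, by -0.41, -0.99 and -0.23 log2 units, and had the lowest unadjusted p of the large subunit with the replicate block, 0.0122 in edgeR's fit. MRPL13, a protein with a bacterial counterpart, stood at 12.4, 14.7 and 13.6 FPKM in 15-KETE libraries, against 15, 24.4 and 14.1 FPKM in control libraries, and the pairs differed by -0.29, -0.94 and -0.06.

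MRPL12 (chr17:81703367-81707517, plus strand) forms the flexible stalk that recruits translation factors to the large subunit. It stood at 40, 80.4 and 43.6 FPKM in 15-KETE replicates 1, 2 and 3, against 52.4, 161 and 45.4 FPKM in control replicates 1, 2 and 3. Both replicate 2 libraries were the highest of their group, and the log2 fold change was -0.81 ± 0.57, the largest standard error of any member, with 0.19 without control replicate 2 and -0.24 without both replicate 2 libraries in the blocked fit. MRPL41, a mitochondria-specific protein with the shortest exonic size of the members, stood at 50.2, 63 and 42.8 FPKM in 15-KETE libraries, against 59.8, 137 and 40.7 FPKM in control libraries. It varied most between pairs in the large subunit, with differences of -0.27, -1.32 and 0.06, so that pair 3 was slightly higher in 15-KETE. MRPL14, whose bacterial counterpart lies at the subunit interface, stood at 46.9, 67.9 and 42 FPKM in 15-KETE libraries, against 55.5, 131 and 41.6 FPKM in control libraries, which gave pair differences of -0.26, -1.16 and 0.01. MRPL18, a protein of the central protuberance, had 57.9, 74.5 and 55.2 FPKM in 15-KETE libraries, against 64.8, 98.4 and 57.4 FPKM in control libraries. Its log2 fold change of -0.35 ± 0.33 was the smallest in size among the 5 most abundant members of the large subunit.

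MRPL23 and MRPL54 also varied much between pairs. MRPL23, whose bacterial counterpart lies at the exit of the peptide tunnel, stood at 5.95, 12.9 and 8.08 FPKM in 15-KETE libraries, against 7.88, 19.7 and 5.53 FPKM in control libraries. It was lower in 15-KETE in pairs 1 and 2 (-0.41 and -0.82) and higher in pair 3 (0.53), the highest difference of any member in that pair. MRPL54, a mitochondria-specific protein, stood at 29.1, 34.2 and 22.8 FPKM in 15-KETE libraries, against 34.2, 73.3 and 22.2 FPKM in control libraries, and differed by -0.25, -1.31 and 0.03. Least variable were MRPL19, MRPL3 and MRPL38. MRPL3, a protein of the peptidyl transferase region with a bacterial counterpart, stood at 45.5, 57.4 and 44.9 FPKM in 15-KETE libraries, against 50, 67.3 and 47.5 FPKM in control libraries. Its pairs differed by -0.15, -0.45 and -0.08, all in the same direction, with a log2 fold change of -0.26 ± 0.29, and MRPL38 gave -0.24, -0.45 and -0.05.

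MRPL58 (chr17:75012670-75021261, plus strand) encodes a peptidyl-tRNA hydrolase that releases peptides from stalled ribosomes and is also built into the large subunit. It stood at 34.9, 39.5 and 34.4 FPKM in 15-KETE libraries, against 39.1, 67.2 and 30.6 FPKM in control libraries. Control replicate 3 was the lowest and control replicate 2 the highest library, so the 15-KETE group lay inside the range of the controls, with a log2 fold change of -0.46 ± 0.37 and pair differences of -0.18, -0.97 and 0.16. MRPL53 (chr2:74471982-74472687, minus strand) was the member that the filter removed. It had 2, 10 and 3 counts in 15-KETE replicates 1, 2 and 3, against 2, 10 and 0 counts in control replicates 1, 2 and 3, which is 27 counts in all. Its product is a mitochondria-specific protein of the large subunit, and at this depth no difference in MRPL53 was detectable.

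In the small subunit the smallest p-values belonged to MRPS24, MRPS12, MRPS18C, MRPS33 and MRPS23. MRPS24 (chr7:43866558-43869893, minus strand), a protein with a bacterial counterpart, stood at 3.35, 3.72 and 2.36 FPKM in 15-KETE replicates 1, 2 and 3, against 4.78, 7.2 and 2.48 FPKM in control replicates 1, 2 and 3. Both groups had their lowest library at replicate 3, and each 15-KETE library was below its control partner. The log2 fold change was -0.75 ± 0.45, and -0.62 ± 0.23 with the replicate block, where edgeR's fit gave an unadjusted p of 0.0183. MRPS12 (chr19:38930944-38933168, plus strand), the counterpart of the bacterial protein at the decoding site, stood at 9.83, 14.3 and 9.15 FPKM in 15-KETE libraries, against 10.5, 33.7 and 10 FPKM in control libraries. Control replicate 2 was more than double every other library, and the pairs differed by -0.11, -1.44 and -0.13. The log2 fold change of -0.87 ± 0.54 and the difference in pair 2 were the lowest of any member. Without control replicate 2 the log2 fold change of MRPS12 was 0.14, and without both replicate 2 libraries it was -0.13 in the blocked fit.

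MRPS18C stood at 5.95, 7.1 and 6.26 FPKM in 15-KETE libraries, against 6.53, 12 and 6.97 FPKM in control libraries. MRPS18A, MRPS18B and MRPS18C are 3 relatives of a single bacterial protein, and MRPS18A sits in the large subunit while the other 2 sit in the small one. MRPS18A stood at 12.5, 20.7 and 14 FPKM in 15-KETE libraries, against 17.7, 21.2 and 12.9 FPKM in control libraries, and MRPS18B at 40.1, 42.3 and 29 FPKM, against 44.6, 63.9 and 31.9 FPKM. The pattern over the libraries differed among them: pair 1 gave the largest difference for MRPS18A (-0.51, with -0.25 and 0.11 in pairs 2 and 3), and pair 2 for MRPS18B (-0.17, -0.81 and -0.14) and MRPS18C (-0.15, -0.96 and -0.16). Their log2 fold changes were -0.24 ± 0.34 for MRPS18A, -0.45 ± 0.36 for MRPS18B and -0.52 ± 0.34 for MRPS18C. MRPS30, the other member that sits in the large subunit, stood at 5.25, 4.87 and 4.91 FPKM in 15-KETE libraries, against 5.25, 5.97 and 4.83 FPKM in control libraries, and varied little, with a log2 fold change of -0.19 ± 0.25.

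MRPS33 and MRPS23, both mitochondria-specific, gave pair differences of -0.30, -0.88 and -0.13 and of -0.24, -1.08 and -0.13, all below 0. MRPS34, a mitochondria-specific protein and the second most abundant of the small subunit, stood at 39.7, 60 and 36.2 FPKM in 15-KETE libraries, against 47.9, 117 and 34.3 FPKM in control libraries. Its pairs differed by -0.29, -1.17 and 0.07, and with MRPS12 and MRPS17 it was among the 3 most variable of the small subunit. MRPS17, the counterpart of a bacterial protein that binds rRNA, stood at 2.83, 5.62 and 4.28 FPKM in 15-KETE libraries, against 3.24, 10 and 3.62 FPKM in control libraries. MRPS21 stood at 41.4, 45.5 and 36.4 FPKM in 15-KETE libraries, against 44.2, 60.5 and 39.5 FPKM in control libraries, and MRPS15 at 30.2, 47.5 and 31.2 FPKM, against 32.5, 69.4 and 30.7 FPKM. For MRPS21 each 15-KETE library lay below its control partner, and for MRPS15 pair 3 differed by 0.02. MRPS36, which is no part of the ribosome, stood at 24, 24.2 and 26.3 FPKM in 15-KETE libraries, against 24.8, 38.2 and 25.9 FPKM in control libraries, and its log2 fold change of -0.37 ± 0.30 was near the median of the ribosomal members.

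A few members stood apart in fold change, in spread between pairs or in their pattern over the libraries. MRPS5 (chr2:95085369-95122006, minus strand), whose bacterial counterpart helps to unwind the mRNA at its entry, was the lowest member of the small subunit and the only one with a log2 fold change above 0, 0.23 ± 0.31. It stood at 2.6, 1.74 and 2 FPKM in 15-KETE libraries, against 1.91, 0.95 and 2.37 FPKM in control libraries. Control replicate 2, the highest library for most members, was the lowest for MRPS5, and the pairs differed by 0.42, 0.64 and -0.25. MRPS27 (chr5:72214953-72321717, minus strand), a pentatricopeptide repeat protein, was the least variable, at 9.04, 13.1 and 9.8 FPKM in 15-KETE libraries, against 9.42, 11.2 and 9.95 FPKM in control libraries. Its pair differences were -0.08, -0.00 and -0.03, and the log2 fold change of -0.030 ± 0.28 had an interval from -0.65 to 0.59. MRPS2 and MRPS11, counterparts of bacterial proteins, were the next least variable of the small subunit, with differences of -0.05, -0.28 and -0.02 and of -0.14, -0.50 and -0.02.

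MRPS25 (chr3:15009611-15065339, minus strand), a mitochondria-specific protein, stood at 2.3, 2.32 and 2.82 FPKM in 15-KETE libraries, against 1.9, 2.37 and 3.07 FPKM in control libraries. Replicate 3 was the highest library of both groups, and the log2 fold change was -0.063 ± 0.26. MRPL19 (chr2:75646783-75690851, plus strand), which in bacteria lies at the subunit interface, stood at 11.3, 7.91 and 11.3 FPKM in 15-KETE libraries, against 10.4, 7.98 and 11.8 FPKM in control libraries. Replicate 2 was the lowest library of both groups, and the log2 fold change was -0.061 ± 0.24. MRPL42 (chr12:93467514-93516214, plus strand) stood at 8.24, 5.68 and 8.41 FPKM in 15-KETE libraries, against 7.51, 7.02 and 8.51 FPKM in control libraries, with replicate 2 again lowest in each group and a log2 fold change of -0.13 ± 0.24. All of MRPS5, MRPS25, MRPS27, MRPL19 and MRPL42 had exonic sizes of 8947 bases or more, and MRPS5, MRPS25, MRPS27 and MRPL42 were among the 5 members over 10 kb. The remaining one of these 5, MRPS22 (16385 bases), had a log2 fold change of -0.33 ± 0.25 and a pair 2 difference of -0.73. MRPS22 and MRPS27 correlated with the median of the other members at 0.823 and 0.815. Shorter members had lower correlations, such as MRPL50 (0.139, 3336 bases), MRPS31 (0.363, 2148 bases) and MRPL35 (0.507, 3825 bases).

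The size of a gene moved with these differences. Over the 77 members the Spearman correlation of exonic size with the pair difference was 0.288, 0.371 and -0.164 in pairs 1, 2 and 3, beside 0.255, 0.407 and -0.011 over all 15451 tested genes, which share the libraries and are not independent. In single libraries the deviation from the gene's mean correlated with size at 0.262, -0.161 and 0.316 among members in 15-KETE replicates 1, 2 and 3, against 0.037, -0.382 and 0.312 in control replicates 1, 2 and 3. Control replicate 2 thus held relatively more of short genes, members and others alike (-0.422 over all tested genes). The 26 shortest, 25 middle and 26 longest members had medians of -0.86, -0.86 and -0.70 in pair 2. The long members thus lay nearer to 0 without any correction for size. With a smooth trend on exonic size taken out of every library, the member medians were -0.17, -0.61 and 0.01 in pairs 1, 2 and 3, beside -0.04, -0.07 and -0.00 for all genes. In that setting MRPS27 and MRPL42 differed by -0.51 and -0.996 in pair 2, below their uncorrected -0.00 and -0.52, and MRPS5 remained above 0 at 0.22. The same correction with the replicate block gave 16 members lower and 0 higher at an unadjusted p below 0.05 in edgeR's fit, against 3.19% and 1.58% of all genes, and 0 with an adjusted p below 0.05. In that fit the shortest, middle and longest members had median log2 fold changes of -0.24, -0.21 and -0.28.

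**Figure D4:**
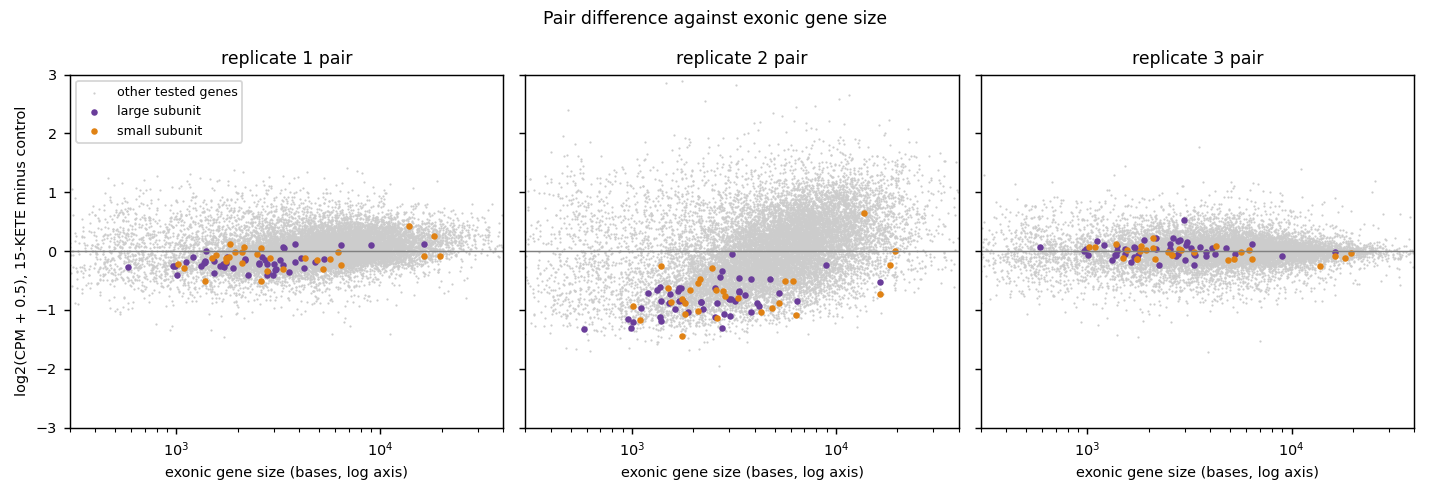
Pair difference of log2(CPM + 0.5), 15-KETE minus control, against exonic gene size in bases (log axis) for large-subunit members (violet), small-subunit members (orange) and other tested genes (grey) in pairs 1, 2 and 3. In pair 2 the grey cloud rises with size (Spearman 0.407) and most members lie along its lower side, long ones included.

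Members varied together over the libraries. The median correlation between 2 members over the 6 libraries was 0.901, 93.1% of the member pairs were above 0, and the first principal component of the members held 91.7% of their variance, values that share the library differences described above. They include control replicate 2 and are given for the members only, so they do not mark a trait particular to these genes. With the median of the other members, 56 of 77 correlated above 0.9, MRPL14 highest at 0.996, while MRPS5 (-0.940), MRPL19 (-0.545) and MRPL42 (-0.004) were below 0 and MRPL50 (0.139) and MRPS25 (0.186) close to it. The 46 members with a bacterial counterpart had a median log2 fold change of -0.44 and the 30 tested mitochondria-specific members -0.37, a difference that was not tested. With the trend on exonic size removed the order turned, to -0.29 and -0.33, and with the replicate block as well to -0.23 and -0.26. MRPS18A and MRPS18B, though relatives of a bacterial protein, were counted as mitochondria-specific, and MRPS18C as having a bacterial counterpart. Members lay on 21 chromosomes, and 28 of 77 (36.4%, against 21.6% of tested genes) had a tested gene that started within 1000 bases on the other strand.

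The neighbours of these members did not show the members' values as a group. In pair 2 the 28 members had a median of -0.85 with 28 below 0, and their neighbours had a median of -0.08 with 16 below 0. MRPL46 and MRPS11, 1 member of each subunit, start 63 bases apart and differed by -0.85 and -0.50. MRPL36 starts, in the table's coordinates and not at the RefSeq start of the promoter shown above, 41 bases from NDUFS6, a complex I subunit, and they differed by -0.85 and -1.13 in pair 2. MRPL49 starts 6 bases from FAU, which encodes a cytosolic ribosomal protein, and here MRPL49 differed by -0.06 but FAU by -1.21. MRPS12 starts 181 bases from SARS2, the mitochondrial seryl-tRNA synthetase, and MRPS12 differed by -1.44 but SARS2 by 0.27. MRPL49, FAU and the other neighbours were picked after their values were seen. Of the members 39 of 77 (50.6%, against 60.6% of tested genes) overlapped a gene on the other strand, and the sources used here do not say whether reads were assigned by strand. MRPL20-AS1, on the strand opposite MRPL20, held 2222 counts, 31.3% of the 7090 counts of MRPL20, and its reads cannot be told apart from those of MRPL20 if strand was ignored.

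Other genes of the mitochondrial translation system were set beside the members. All 5 subunits named outside the rule had log2 fold changes below 0, with a median of -0.63, and 0 passed the test. GADD45GIP1, a large-subunit protein, stood at 23.6, 33.8 and 18.3 FPKM in 15-KETE libraries, against 28.4, 73 and 19.7 FPKM in control libraries, with a log2 fold change of -0.83 ± 0.54. AURKAIP1 and CHCHD1, both of the small subunit, had -0.75 ± 0.50 and -0.63 ± 0.43, and the GTP-binding subunit DAP3 had -0.33 ± 0.33. PTCD3, a pentatricopeptide repeat subunit, stood at 9.28, 9.5 and 12.1 FPKM in 15-KETE libraries, against 7.93, 8.85 and 12.5 FPKM in control libraries, with replicate 3 highest in both groups and a log2 fold change of -0.0022 ± 0.26. The rRNAs did not share 1 direction. MT-RNR1, the rRNA of the small subunit, had a log2 fold change of -0.35 ± 0.30, and MT-RNR2, that of the large subunit, 0.07 ± 0.32, in libraries made from polyadenylated RNA.

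Among 24 factors that assemble the mitochondrial ribosome, 20 were below 0 with a median of -0.19, and 0 passed the test. The rRNA methyltransferase MRM1 had the smallest p, with 1.67, 3.02 and 1.67 FPKM in 15-KETE libraries, against 2.66, 4.87 and 2.55 FPKM in control libraries. It was lower in 15-KETE by -0.60, -0.85 and -0.54 in pairs 1, 2 and 3, the log2 fold change was -0.78 ± 0.44, and the unadjusted p with the replicate block was 0.0057 in edgeR's fit. YBEY, a ribonuclease, had -0.39 ± 0.32. Of 15 translation factors and mRNA-binding proteins 12 were below 0 with a median of -0.08, and 0 passed. Smallest in p were SLIRP, which binds mitochondrial mRNAs (-0.79 ± 0.47), and the elongation factor TSFM (-0.43 ± 0.33). Of 14 regulators of mitochondrial biogenesis 8 were below 0 with a median of -0.05, and 0 passed, with TFB2M, a transcription factor for mitochondrial DNA, at -0.32 ± 0.28 and the coactivator PPARGC1B at 0.28 ± 0.30.

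The 13 mRNAs of the mitochondrial genome, which this ribosome translates, had 5 values below 0 and a median of 0.030, and 0 passed the test. The lowest p-values belonged to the complex I subunits MT-ND3 (-0.35 ± 0.27) and MT-ND6 (-0.22 ± 0.31). Larger sets of nuclear genes were also lower in 15-KETE, with median exonic sizes of 3228 bases for cytosolic ribosomal proteins and 2615 for the respiratory chain, beside 2549 for the members and 4892 for all tested genes. All 79 tested cytosolic ribosomal protein genes of 81 were below 0, with a median of -0.51 and pair medians of -0.24, -0.98 and 0.03, and among them RPL34 had -0.61 ± 0.38 and RPS27A -0.67 ± 0.42. Of 77 nuclear genes for respiratory chain and ATP synthase subunits 76 were below 0, with a median of -0.55 and pair medians of -0.23, -0.98 and 0.01, and the ATP synthase subunit ATP5F1D had -0.94 ± 0.52 and the complex I subunit NDUFB3 -0.56 ± 0.32. In both sets 0 genes passed the test in edgeR's fit, with a lowest adjusted p of 0.9996. Without control replicate 2 the medians were 0.034 for the cytosolic ribosomal proteins, 0.046 for the respiratory chain, 0.090 for the other mitochondrial ribosome subunits and 0.073 for the assembly factors. Without both replicate 2 libraries and with the replicate block they were -0.12, -0.12, -0.098 and -0.052 in the same order. With the size trend taken out, pair 2 gave -0.87 and -0.85 for the cytosolic ribosomal proteins and the respiratory chain, against -0.61 for the members.

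**Figure D5:**
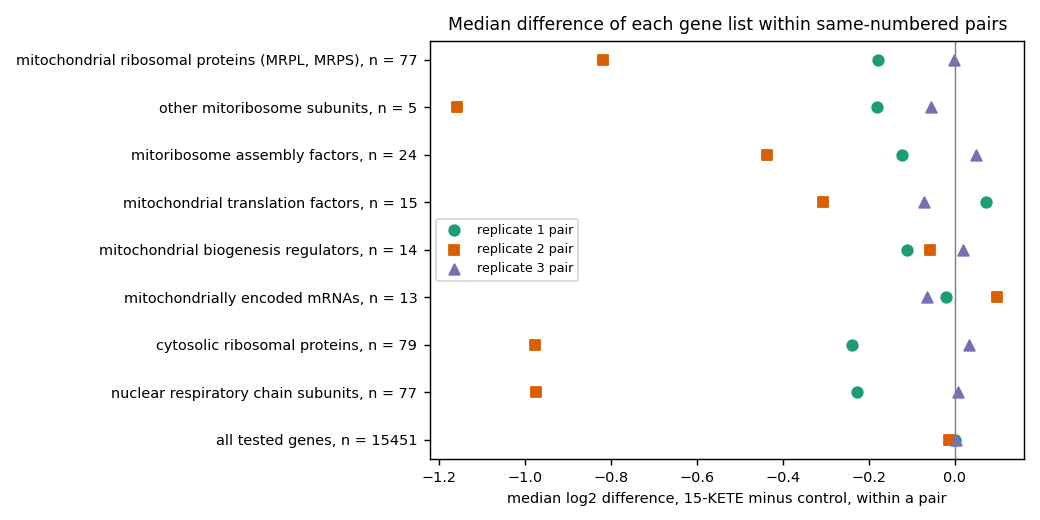
Median difference of log2(CPM + 0.5), 15-KETE minus control, of the members, of the other gene lists and of all tested genes within pair 1 (circles), pair 2 (squares) and pair 3 (triangles), with the number of genes tested beside each name. Pair 2 lies furthest to the left for the nuclear subunits of both kinds of ribosome and of the respiratory chain (-0.82 for the members), and pair 3 lies within 0.1 of 0 for every list.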

How the data were processed

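The authors deposited 1 table for the series. Per the file headers it holds raw counts, whole reads per Ensembl gene and library, and FPKM, which divide them by exonic gene size and library total. All FPKM (100%) lay within 0.01 of the values recomputed from the deposited counts and sizes. Tools named by the submitters' processing notes, without role or sequence, were edgeR 3.4.6, DESeq 1.18.0, DESeq2 1.6.3, Cuffdiff 2.2.1, Cufflinks 2.2.1, StringTie 1.3.3b, SAMtools 0.1.19, HTSeq 0.6.1, HISAT2 2.2.1 and cutadapt 1.9.1. The genome build and the strand setting of counting were not given in the sources used here, and positions are printed as in the table. All 78 members were on the same chromosome in GENCODE release 29 (GRCh38), and 57 shared a start or an end. Reads of near-identical copies may be split: 79 pseudogenes named for members held 1112 counts, against 522433 for the members, most for MRPL45P2 (10.3% of MRPL45) and MRPS31P5 (5.05% of MRPS31).

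Counts were tested with edgeR 4.0.16 in R 4.3.3 (filterByExpr by group, TMM, robust quasi-likelihood test of 15-KETE against control), adjusted over 15451 genes by Benjamini-Hochberg. Errors of fold changes are standard errors of that fit. Pair differences use CPM over the tested genes with TMM factors. The scripts were checked on simulated counts. Alternatives were DESeq2 1.42.0, other size factors, other filters (such as a mean of 10 CPM), a size trend (mgcv 1.9.3), a replicate block and leaving out libraries. Deviations from group means correlated at 0.626, 0.693 and 0.778 between same-numbered libraries and at -0.617 to -0.086 otherwise. As the deviations cancel within each group, the negative values follow in part from the positive ones. On the positive values the numbers, which come from the titles, were taken to pair the libraries, though no label says what they mark. No replicates agreed within sampling noise (chi-square per gene of at least 30.4).

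Members and gene lists were chosen with earlier results of these data known. Named members were, in each subunit, the 5 of smallest p, the 5 highest and 3 lowest in FPKM and the 3 most and 3 least variable between pairs, with those removed by the filter and 7 named for their roles (MRPS18A, MRPS18B, MRPS18C, MRPS30, MRPS36, MRPL12, MRPL58), and in other lists the 2 of smallest p or all subunits and rRNAs. MRPL35, MRPL36, MRPL49, MRPL50, MRPS22, MRPS31 and the neighbouring genes were named after their values were seen.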

Additional observations from a re-analysis of the deposited data

How the results depend on the processing

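No member had an adjusted p below 0.05 in edgeR's or DESeq2's test under any alternative run. Unadjusted p below 0.05 was reached by 0 members in the main edgeR fit (0.162% of all genes). With the replicate block it was reached by 16, all lower (2.3% of all genes lower and 2.41% higher). Without a filter it was reached by 10 of 78 (1.41% of all genes). Without control replicate 3, and with no block, it was reached by 17 (893 of 15896 genes tested there). With the block and without both replicate 3 libraries it was reached by 30 (12.2% of all genes), where 12 other genes passed adjustment. Leaving out 1 library moved the member median between -0.62 and 0.047, that of the large subunit between -0.63 and 0.047 and that of the small subunit between -0.52 and 0.060, in each case highest without control replicate 2, and the log2 ratio of the subunit sums between -0.073 and 0.00023. The same ranges were -0.89 to 0.090 for the other subunits, -0.29 to 0.073 for assembly factors, -0.079 to 0.16 for mitochondrial mRNAs, -0.056 to 0.015 for biogenesis regulators, -0.79 to 0.034 for cytosolic ribosomal proteins and -0.77 to 0.046 for the respiratory chain. With the replicate block and without both replicate 2 libraries the member median was -0.092 and 64 of 77 members were below 0, and with the replicate block over all libraries it was -0.32. Biogenesis regulators had a median of 0.040 with library totals only, and mitochondrial mRNAs 0.14 with the size trend removed and the replicate block. Of the members named by rule, log2 fold changes changed sign with library totals only (MRPL19 0.010, MRPS25 0.021, MRPS27 0.060), without both replicate 1 libraries (MRPS27 0.00047), without both replicate 2 libraries (MRPL19 0.0028, MRPS17 0.014, MRPL42 0.040, MRPL23 0.046, MRPS25 0.053, MRPL46 0.11) and without both replicate 3 libraries (MRPS25 0.024). Counting all 77 members, 51 were above 0 without control replicate 2 and 13 with the block and without both replicate 2 libraries. Named members that changed sign without 1 library, in most cases control replicate 2, were MRPL12 (-1.25 to 0.19), MRPL14 (-0.99 to 0.13), MRPL18 (-0.53 to 0.056), MRPL19 (-0.13 to 0.066), MRPL20 (-1.16 to 0.10), MRPL23 (-0.85 to 0.45), MRPL3 (-0.42 to 0.038), MRPL41 (-1.08 to 0.071), MRPL42 (-0.21 to 0.0091), MRPL46 (-0.53 to 0.099), MRPL51 (-0.85 to 0.047), MRPL54 (-1.06 to 0.047), MRPL58 (-0.69 to 0.077), MRPS11 (-0.46 to 0.097), MRPS12 (-1.17 to 0.14), MRPS15 (-0.70 to 0.23), MRPS17 (-0.86 to 0.34), MRPS18A (-0.52 to 0.066), MRPS2 (-0.32 to 0.12), MRPS23 (-0.90 to 0.060), MRPS25 (-0.23 to 0.088), MRPS26 (-0.78 to 0.030), MRPS27 (-0.24 to 0.16), MRPS30 (-0.29 to 0.0086), MRPS34 (-1.02 to 0.17) and MRPS5 (-0.0036 to 0.49). The cause was not tested. MRPL53, with 27 counts over the 6 libraries, was the member too shallow to test.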
